A study of Mus musculus with 36 samples.

Results

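The pair of groups described here was the HFD-U group, male C57BL/6 wild-type mice fed the high-fat diet (HFD) with free use of a running wheel, against the NFD-C group, sedentary mice of the same strain and sex fed the normal-fat diet (NFD). Its members were chosen by their group labels alone, and they were 12 of the 36 libraries of the series, 6 in HFD-U and 6 in NFD-C. Per the labels, unrestricted runners averaged 8.3 km/day over 12 weeks, and mice were 3 to 4 weeks old at the start. Each library was poly(A)-selected RNA of the gastrocnemius, the large calf muscle, from a single mouse. The study states that a gastrocnemius of each mouse was pulverised and homogenised, and it names no smaller part of the muscle.

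Diet and running differ together in this pair of groups, so no value below can be set down to one of them. The 4 other groups were used only as levels placed side by side: sedentary high-fat mice (HFD-C) and 18 high-fat runners held to 25%, 50% or 75% of the unrestricted distance (HFD-25%, HFD-50%, HFD-75%).

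As background, the mouse gastrocnemius is built mainly of fast fibres, most of them of type 2B, which contain the myosin Myh4 and lean on glycolysis. Type 2X and 2A fibres (Myh1 and Myh2) and the few slow fibres (Myh7) hold more mitochondria, myoglobin and fat-oxidising enzymes. Both dietary fat and endurance running are known to raise transcripts of fatty acid oxidation in muscle, partly through the nuclear receptors called PPARs, and running is known to move fibres from 2B toward 2X and 2A.

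The labelled tissue was borne out by its markers: the summed level of the myofibre markers (lowest, median and highest mouse) was 147496, 164983 and 182952 CPM in NFD-C and 132540.0, 156835 and 174714 CPM in HFD-U. Levels throughout are CPM, that is counts scaled to one common library size, adjusted by the trimmed mean of M values (TMM) over all 36 libraries. Muscle RNA came from whole tissue, so fewer cells of a type and less RNA per cell cannot be told apart. Library totals ran from 13060090 to 23733086 counts in NFD-C and from 14611063 to 17757846 in HFD-U.

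The libraries of the pair also differed in a way that the groups carry with them. Counts on rRNA-linked features (annotated rRNA genes, the AY036118 and LOC118568312 loci on chromosome 17, and Lars2, whose gene name is that of the mitochondrial leucyl-tRNA synthetase) made up 2.01% to 3.80% of each NFD-C library and 0.470% to 0.622% of each HFD-U library. The series held 10 libraries above 1.43%, the widest gap in this share, and they were the 6 of NFD-C and 4 of the 6 in HFD-C. HFD-C thus held both kinds, with shares of 0.551% and 0.626% in its replicates 5 and 6. Between NFD-C and HFD-U the share and the group cannot be told apart, and the high-share and low-share libraries of HFD-C are therefore given beside the results.

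**Figure D1:**
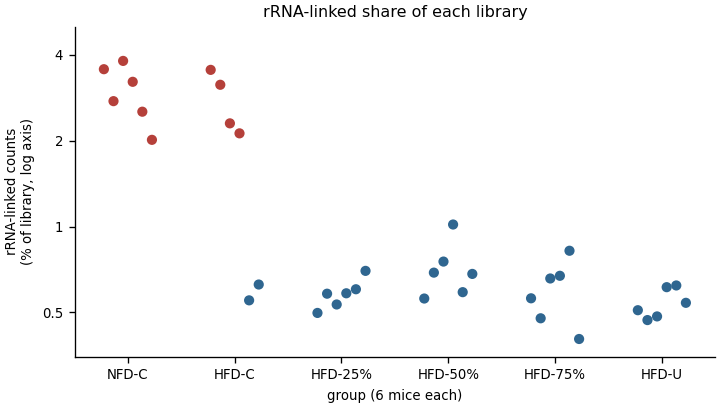
Percent of each library's counts on rRNA-linked features (log axis) for the 6 mice of each group, with libraries above 1.43% in red and the others in blue. All NFD-C libraries lie at 2.01% or more, all HFD-U libraries at 0.622% or less, and HFD-C is the only group with both kinds.

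The rRNA link of AY036118 can be read from its sequence. Every one of the 900 words of 24 bases in its GENCODE M21 transcript of 923 bases was found on the same strand in CT010467.1. That annotation lists CT010467.1 under both pseudogene and rRNA. All 900 words were also found in Gm42418, listed there as a long noncoding RNA, but on the opposite strand. The first 60 bases of the AY036118 transcript are shown in lower case as an example of this sequence. They are printed on the transcript's own strand, which need not be the strand of the rRNA. The counted feature is 1409 bases long, and where in it the reads lay was not examined.
AY036118: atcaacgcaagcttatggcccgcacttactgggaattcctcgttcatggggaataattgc
None of the 11139 such words of the Lars2 transcripts was found in CT010467.1 or in the mitochondrial rRNA genes mt-Rnr1 and mt-Rnr2. Lars2 was thus kept with the rRNA-linked features for its levels alone, which split HFD-C as theirs did (716 to 1484 CPM in its high-share mice and 83.1 and 71.6 CPM in the others). AY036118 lay at 5440.3, 8486 and 10894 CPM in NFD-C (lowest, median and highest mouse, as in all such triplets here) and at 622, 739 and 976 CPM in HFD-U. Lars2 lay at 938, 1268 and 1685 CPM and 66.5, 75.7 and 96.4 CPM. Neither locus overlapped between the groups. The mitochondrial rRNAs did not follow them: mt-Rnr2 lay at 1627, 1853 and 2626 CPM in NFD-C and 1008, 1979 and 2582 CPM in HFD-U. The difference was -0.028 ± 0.19 on the log2 scale (fold change ± standard error, n = 6 and 6, edgeR).

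Of 11992 features with a mean count of at least 25, edgeR's quasi-likelihood test called 91 at a Benjamini-Hochberg adjusted p no higher than 0.05, which is 0.759% of those tested. Of these 19 were higher in HFD-U (0.158%) and 72 lower (0.6%), and 49 differed by 2-fold or more. Past the same threshold on the unadjusted p (the unadjusted threshold, below), 560 genes were higher (4.67%) and 703 lower (5.86%). The groups did not overlap in any mouse for 76 of the 91 called genes, while 1.06% of all features tested did not overlap. The called genes were chosen on these same libraries, so frequent non-overlap among them is built in and adds no support. The middle 90% of log2 fold changes ran from -0.48 to 0.41, with a median of 0.0042. Leaving out 1 library moved the count of called genes by over 1.5 times for NFD-C replicates 4, 5 and 6 (53, 57 and 60 genes) and HFD-U replicates 5 and 6 (49 and 59). The 19 higher calls were less firm than the total: they were 5 to 39 over the 12 omissions, more than 1.5 times away for each library but HFD-U replicate 3, and 75 with DESeq2.

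Single calls near the threshold were also easily lost when a library was left out. Of the called genes named below, the falling pseudogenes Gm12070 and Ndufa12-ps aside, 13 of 34 lost the call in at least 1 of the 12 omissions of a library. Ddt lost it in 2, Actg1 in 4, Kcnq1ot1 in 5, Slc38a2 in 7, Plcl1, Mpc1, Rpl21 and H2-Aa in 8 each, and Bche, Idh1, Chrna1, Ndufb1 and Ccn1 in 10 each, with adjusted p up to 0.124. For each of the 12 libraries, its omission lost at least 1 of these calls. All 13 were lost with more than 1 library, so they were marginal calls and none hung on a single mouse. Below, log2 fold changes are HFD-U minus NFD-C with their standard errors, and "rose" and "fell" are used only for genes past the adjusted threshold. Members named from lists of genes by function are mostly those with the smallest p in the list, so they are not typical members.

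The count of called genes depended on how the rRNA-linked share entered. When HFD-C was added and each library's set (high or low share) was a term of the edgeR fit, 18 libraries gave 0 genes past the adjusted threshold, with 1533 past the unadjusted one. Of the genes in that fit 5.84% were higher and 6.84% lower past the unadjusted threshold, and list counts given below with the term are to be read against these shares. That fit has wider errors (median standard error 0.30 against 0.16), since only HFD-C links the sets. On the low-share side HFD-C held only its replicates 5 and 6, and no library was left out of that fit. Values with the term can therefore rest on either of these mice. In that fit 69 of the 90 called genes that it tested had the same direction as before, namely all 19 risers and 50 of 71 fallers. Of these 69, 20 were also past the unadjusted threshold (5 risers and 15 fallers). By the level of the HFD-C low-share libraries, 72 of the 91 called genes lay nearer to HFD-U than to NFD-C. They were 63 of the 72 fallers but only 9 of the 19 risers. By the level of the HFD-C high-share libraries 15 did (11 fallers and 4 risers). None of these counts of direction or nearness was made over all genes tested. The account below therefore takes first the genes for which HFD-C differed between its own libraries.

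**Figure D2:**
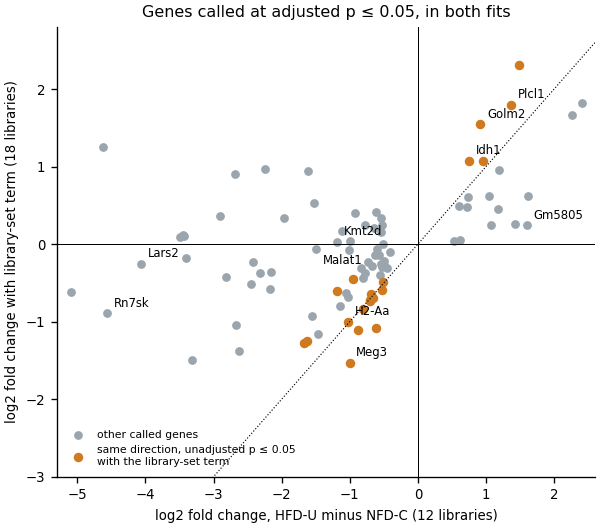
Log2 fold change of each called gene from the 12 libraries of the pair (horizontal) and from the 18 libraries with the library-set term (vertical), with the line of equal values dotted. Lars2 lies at -0.25, and the nuclear RNAs Malat1 and Rn7sk at -0.061 and -0.89, on the vertical axis, all nearer to 0 than on the horizontal one, while Golm2, Plcl1, Idh1, H2-Aa and Meg3 (orange) lie on or past the dotted line.

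The deepest falls were in 3 of the 5 tested rRNA-linked features, in uncharacterised loci such as LOC118568007 (-5.09 ± 0.27), and in the nuclear RNA Rn7sk. Lars2 fell (log2 fold change -4.06 ± 0.17, adjusted p = 9.4e-10), and so did LOC118568312 (-3.45 ± 0.18) and AY036118 (-3.50 ± 0.19). Rn7sk, the small nuclear RNA that holds back the elongation factor P-TEFb, lay at 3.21, 10.1 and 12.9 CPM in NFD-C and 0.112, 0.349 and 0.691 CPM in HFD-U (-4.56 ± 0.42, adjusted p = 1.53e-05). It was the 1 called gene among 6 tested RNAs without a poly(A) tail. Of these, 4 had a positive log2 fold change, and the median was 0.11. Malat1, a long noncoding RNA of nuclear speckles, lay at 1228, 1637 and 2812 CPM and 559.5, 699.9 and 752 CPM, with no overlap (-1.49 ± 0.20, adjusted p = 0.00105). In HFD-C, Malat1 stood at 1239 to 1926 CPM in the 4 high-share mice and at 629.8 and 497 CPM in the other 2. With the library-set term its log2 fold change was -0.061 (unadjusted p = 0.861). Of the 7 tested nuclear long noncoding RNAs, Malat1, Meg3 and Kcnq1ot1 fell, Rian was lower at an unadjusted p of 0.00117 (-1.07), and Neat1, Tug1 and Snhg14 lay at -0.50, -0.083 and 0.18 with unadjusted p from 0.0772 to 0.499.

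Many of the fallers were long genes, and a smaller group of them was short. The 72 fallers had a median gene length of 7692 bases against 3804.5 bases over all genes tested. The shortest 2400 genes held 20 of them and the 3 middle classes of length 4 each, so there was no steady order with length. The other 40 were among the longest 2399 genes (7146 bases and more). Of these 40, 26 were protein-coding, 13 were long noncoding RNAs and 1 had no biotype. In that class, 10.5% of genes were lower and 2.96% higher past the unadjusted threshold, while in the shortest 2400 genes 5.75% were lower and 7.21% higher. With the library-set term the order was the other way round: 53 of the longest genes were lower and 225 higher past the unadjusted threshold, against 410 lower and 48 higher among the shortest. GC content of the transcript moved with the calls too. Over the 5 classes of GC, from low to high, 2.36%, 2.97%, 4.72%, 7.43% and 9.75% of genes were lower past the unadjusted threshold, with 88.6% of the lower genes having a value. With the term this order of the lower genes stayed, from 65 in the lowest class to 239 in the highest. The higher genes showed no such order without the term, at 4.15% to 5.2% in each class. With the term they ran from 208 in the lowest class to 65 in the highest. The part of length or GC content in these calls was not tested beyond these counts.

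**Figure D3:**
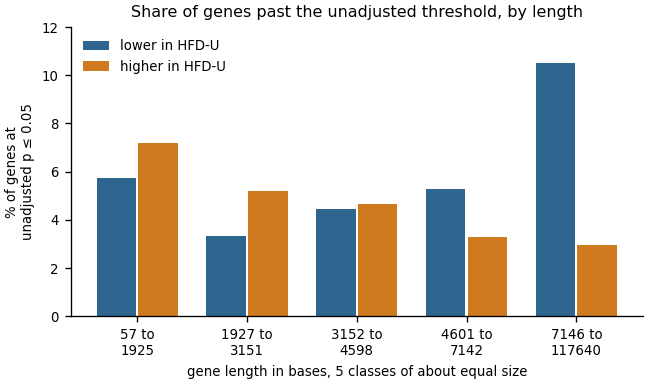
Percent of genes lower (blue) and higher (orange) in HFD-U past the unadjusted threshold, in 5 classes of gene length (bases) of about equal size. The lower share is 10.5% in the longest class and between 3.34% and 5.75% in the 4 others.

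Kmt2d, which encodes a histone H3 lysine 4 methyltransferase, was the clearest of these (chromosome 15, 98729550 to 98771958 on GRCm39, 23080 bases of exon). It lay at 143, 168 and 176 CPM in NFD-C and 63.4, 70.5 and 83.1 CPM in HFD-U, and it fell (-1.18 ± 0.10, adjusted p = 2.9e-06). HFD-C gave 129 to 179.6 CPM in its high-share mice, around the NFD-C values, and 70.5 and 55.5 CPM in the low-share mice, within or below the HFD-U values. With the library-set term the difference was 0.031 (unadjusted p = 0.868). The next genes were named after their values were seen. Plec, the cytoskeletal linker plectin, fell (-0.99 ± 0.14, adjusted p = 0.00161) and lay at 0.037 with the term. Srcap, a chromatin remodeller, also fell (-0.73 ± 0.10, adjusted p = 0.00109), and lay at -0.24 with the term (unadjusted p = 0.173).

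Other long genes held more of their difference. Zfhx3, a homeobox transcription factor of large size, fell (-1.18 ± 0.16, adjusted p = 0.00109) and kept -0.60 with the term (unadjusted p = 0.046). It too split within HFD-C. Its high-share mice gave 15.0 to 22.5 CPM, all below the lowest NFD-C mouse (23.0 CPM). Its low-share mice gave 11.5 and 14.6 CPM, within the HFD-U range of 8.33 to 16.3 CPM. Hdac4, a class II histone deacetylase that represses MEF2-driven muscle genes, was the one called gene among 23 tested fibre type and oxidative regulators (-0.56 ± 0.10, adjusted p = 0.0129, -0.40 with the term, unadjusted p = 0.059).

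The tops of the risers were pseudogenes, copies of abundant messenger RNAs, for which the split of reads between copy and parent is uncertain. Gm5805, described in the table as resembling ribosomal protein S14, lay at 2.77, 4.45 and 5.19 CPM in NFD-C and 10.7, 12.6 and 15.8 CPM in HFD-U (1.60 ± 0.17, adjusted p = 6.14e-05). Its parent Rps14 had a log2 fold change of -0.11 ± 0.13. Gm11249 and Rps2-ps10, both like Rps2, rose by 1.62 ± 0.23 and 1.43 ± 0.21, while Rps2 itself lay at 0.23. Gm7336, like Gapdh, rose by 1.07 ± 0.14 from 43.2, 61.2 and 82.2 CPM to 119, 128 and 153 CPM. Gapdh, the glycolytic enzyme, was spread from 389 to 1368 CPM in NFD-C and from 25.2 to 1381 CPM in HFD-U, far more than its copy, so that its difference of -1.12 ± 0.80 did not pass (adjusted p = 0.706). Not all copies rose: of 9 called pseudogenes 5 rose and 4 fell, among them Gm12070, another copy of Gapdh (-0.68 ± 0.14, adjusted p = 0.0305), and Ndufa12-ps (-0.81 ± 0.15, adjusted p = 0.0161), whose parent Ndufa12 lay at 0.59. These last were named after their values were seen. For the 4 copies that head the risers, the low-share HFD-C mice lay above the high-share ones, for example at 6.87 and 13.3 CPM against 3.05 to 5.32 CPM for Gm5805. Of the 91 called genes 30 overlap another tested feature in the table, among them Flrt1 (-2.17 ± 0.27), a fibronectin leucine-rich repeat protein, and Gm38621 (-3.32 ± 0.47), which share the Macrod1 locus on chromosome 19, so their reads cannot be assigned with certainty.

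A smaller set of called genes kept its direction past the unadjusted threshold with the term, in a fit that reuses the libraries of the pair. Golm2, a Golgi membrane protein (chromosome 2, 121696255 to 121766701 on GRCm39), lay at 6.55, 7.74 and 13.4 CPM in NFD-C and 14.3, 15.4 and 18.4 CPM in HFD-U. Every HFD-U mouse was above every NFD-C mouse, with NFD-C replicate 1 the highest of the sedentary mice. It rose by 0.92 ± 0.16 (adjusted p = 0.0126). HFD-C stood at 7.48 to 13.2 CPM at a high share and 7.11 and 7.002 CPM at a low share, all below HFD-U, and the difference with the term was 1.55 (unadjusted p = 8.82e-05). Medians of the restricted runners, in the order HFD-25%, HFD-50% and HFD-75%, were 20.1, 17.5 and 16.5 CPM.

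Plcl1 encodes a phospholipase C-like protein that lacks the enzyme activity and binds inositol phosphates (chromosome 1, 55442722 to 55793444 on GRCm39). It lay at 4.24, 4.67 and 5.71 CPM in NFD-C and 6.097, 11.7 and 25.9 CPM in HFD-U. The sedentary mice were within a narrow band and the runners were spread widely above it (1.36 ± 0.29, adjusted p = 0.0419). HFD-C gave 4.600 to 8.58 CPM and 4.88 and 4.74 CPM, and the difference with the term was 1.80 (unadjusted p = 0.00253). Idh1, the cytosolic NADP-dependent isocitrate dehydrogenase, was at 14.9, 16.3 and 17.97 CPM in NFD-C and 15.9, 28.4 and 39.2 CPM in HFD-U, with overlap in the lowest runner (0.75 ± 0.16, adjusted p = 0.0421, 1.07 with the term). HFD-C gave 18.2 to 31.6 CPM at a high share, all above NFD-C, and 12.5 and 23.8 CPM at a low share, so the sedentary high-fat mice reached into the range of the runners.

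For 2 further risers the difference with the term did not pass even the unadjusted threshold. Ddt, a tautomerase related to the cytokine MIF, lay at 7.04, 7.84 and 10.4 CPM and 10.96, 16.9 and 24.1 CPM and rose (1.05 ± 0.20, adjusted p = 0.0192, 0.62 with the term, unadjusted p = 0.181). Bche, which encodes butyrylcholinesterase, lay at 2.21, 2.96 and 6.15 CPM and 5.11, 8.12 and 11.1 CPM with overlap and rose (1.19 ± 0.26, adjusted p = 0.0421, 0.96 with the term, unadjusted p = 0.138).

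Among fallers that kept their direction in that way, Meg3, an imprinted noncoding RNA of chromosome 12, lay at 19.4, 27.5 and 46.3 CPM in NFD-C and 11.2, 15.2 and 16.1 CPM in HFD-U (-1.002 ± 0.18, adjusted p = 0.011). Unlike Malat1 it was no lower in the HFD-C low-share mice (27.9 and 34.7 CPM) than in the high-share mice (16.97 to 29.3 CPM), and the difference with the term was -1.53 (unadjusted p = 8.52e-05). Tceal7, a small protein of the TFIIS-like family on the X chromosome, lay at 20.3, 24.7 and 32.6 CPM and 10.7, 13.3 and 18.5 CPM (-0.87 ± 0.15, adjusted p = 0.00966, -1.11 with the term). HFD-C lay at 16.9 to 29.6 CPM and 31.6 and 23.1 CPM, mostly within the NFD-C range. Actg1, cytoplasmic gamma-actin, fell from 129.5, 146 and 154 CPM to 72.1, 101 and 111 CPM with no overlap (-0.61 ± 0.12, adjusted p = 0.0225, -1.09 with the term). In HFD-C it was at 86.1 to 129 CPM in the high-share mice, all below NFD-C, and at 191 and 105 CPM in the low-share mice, so HFD-C did not stand with NFD-C. Its median in the 3 restricted running groups was 130.0, 128 and 124 CPM.

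**Figure D4:**
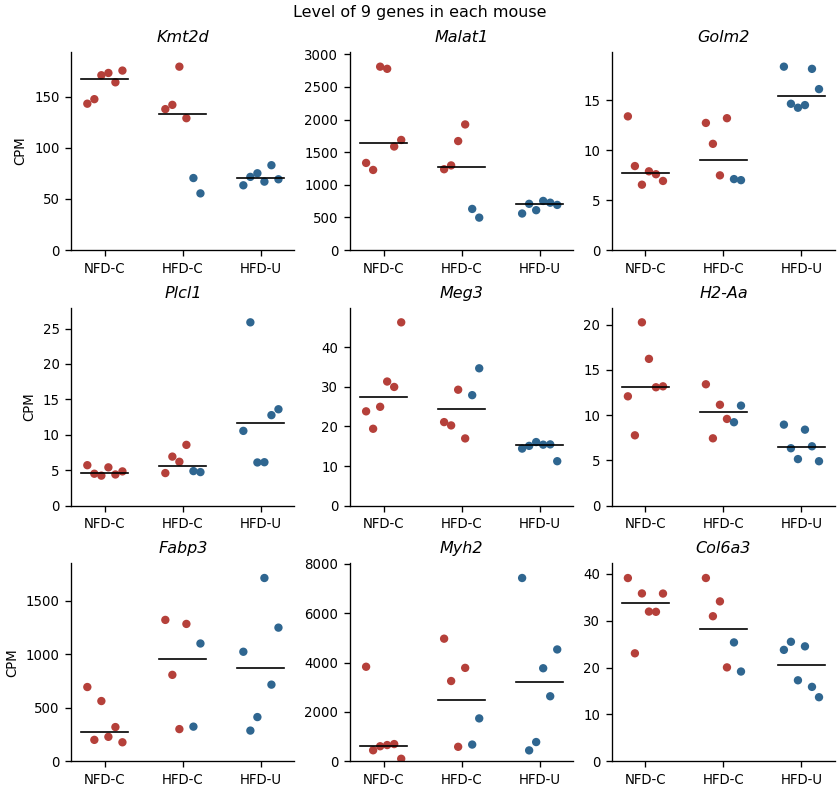
CPM of 9 genes in each mouse of NFD-C, HFD-C and HFD-U, with medians as bars and libraries above a 1.43% rRNA-linked share in red, the others in blue. Kmt2d and Malat1 split within HFD-C by the library's share, Golm2 is higher in every HFD-U mouse than in every sedentary mouse, and Myh2 is far above the other NFD-C mice in replicate 1.

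Of the 30 tested genes of fatty acid uptake and beta-oxidation, 28 had a positive log2 fold change, and none passed the adjusted test in edgeR (DESeq2 called 1 higher and 1 lower). In this list, 15 of 30 tested members were higher and 1 lower past the unadjusted threshold, with a median log2 fold change of 0.41 against 0.0042 over all genes. Fabp3, the fatty acid binding protein of heart and oxidative muscle, lay at 178, 275 and 694 CPM in NFD-C and 287, 870.4 and 1713 CPM in HFD-U (1.31 ± 0.42, adjusted p = 0.211). Acaa2, the thiolase that ends each turn of mitochondrial beta-oxidation, lay at 76.9, 98.8 and 176 CPM and 95.4, 208 and 313 CPM (0.87 ± 0.26, adjusted p = 0.168). Echs1, the enoyl-CoA hydratase, was at 0.49 ± 0.15 (adjusted p = 0.207). Both groups overlapped for each of these 3.

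The member on the lower side past the unadjusted threshold was Cpt1a, the liver form of the carnitine palmitoyltransferase that lets fatty acids into mitochondria. It lay at 14.7, 16.5 and 17.4 CPM in NFD-C and 7.99, 10.9 and 15.4 CPM in HFD-U (-0.52 ± 0.15, adjusted p = 0.14). The other negative member, Slc27a4, lay at -0.12. HFD-C values for Fabp3 were 301 to 1322 CPM and 324 and 1101 CPM, which overlap both groups. With the library-set term the list had 2 higher and 0 lower with a median of 0.63, so most of its members were no longer past the unadjusted threshold. Without NFD-C replicate 1 it had 21 higher and 1 lower with a median of 0.55. Over all genes, 4.67% were higher past the unadjusted threshold in the full set and 6.74% without this mouse. Without HFD-U replicate 6 the share over all genes was 3.29%. Counts of this list for other omissions are not given here.

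Of PPAR targets, 6 of 24 tested members were higher and 3 lower, with a median of 0.13. With the term the list had 5 higher and 1 lower with a median of 0.46. Slc25a34, a mitochondrial carrier, lay at 1.88, 3.99 and 14.9 CPM in NFD-C and 3.94, 18.9 and 28.7 CPM in HFD-U (1.62 ± 0.51, adjusted p = 0.203). Plin5, which coats lipid droplets beside mitochondria, was at 1.12 ± 0.42 (adjusted p = 0.314). Ucp3, a mitochondrial carrier induced by fatty acids, and Angptl4, a secreted inhibitor of lipoprotein lipase, were on the lower side at -0.42 ± 0.14 and -0.67 ± 0.28 (adjusted p = 0.235 and 0.384). The HFD-U median of Angptl4, 5.24 CPM, was level with that of HFD-C (5.24 CPM) and below those of the restricted runners, 10.5, 22.8 and 14.4 CPM. No test was made of that order.

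In lipid droplet turnover, 3 of 16 tested members were higher and 1 lower, with a median of 0.17. Pnpla2, the adipose triglyceride lipase, lay at 167, 196 and 239 CPM in NFD-C and 182, 288 and 401 CPM in HFD-U (0.54 ± 0.16, adjusted p = 0.169). Dgat2, which makes triglyceride, lay at 1.37 ± 0.52 (adjusted p = 0.321). Of lipogenic and SREBP1 genes, 0 of 21 tested members were higher and 3 lower, with a median of -0.028.

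Pnpla3, a SREBP1-driven relative of that lipase, lay at 2.44, 9.34 and 14.3 CPM and 1.13, 3.66 and 4.07 CPM (-1.54 ± 0.43, adjusted p = 0.141). Scd1, the delta-9 desaturase, lay at 5.37, 17.2 and 100.5 CPM and 4.64, 11.6 and 17.7 CPM (-1.65 ± 0.62, adjusted p = 0.314). Of the 5 tested adipocyte markers none was past the unadjusted threshold, and their median was -1.47. Their sum was 2.35, 8.91 and 67.5 CPM in NFD-C and 2.07, 12.03 and 19.4 CPM in HFD-U, so that the highest mouse was in NFD-C while the median was higher in HFD-U. With the term the markers had 0 higher and 3 lower with a median of -4.08. Their sum was 9.64 CPM in HFD-C replicate 5 and 97.5 CPM in replicate 6, against 2.74 to 22.5 CPM in the high-share HFD-C mice. The part of fat cells in the Scd1 difference was not tested. In cholesterol synthesis and uptake, 3 of 22 tested members were higher and 0 lower, with a median of 0.10.

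For the nuclear subunits of complex I, 7 of 38 tested members were higher and 1 lower, with a median of 0.17, and for complexes II to V, 8 of 41 tested members were higher and 0 lower, with a median of 0.19. Ndufa12, an accessory subunit of complex I, lay at 64.4, 86.1 and 115 CPM and 93.3, 132 and 167 CPM (0.59 ± 0.15, adjusted p = 0.11). Sdhb, the iron-sulphur subunit of complex II, was at 0.56 ± 0.17 (adjusted p = 0.198). With the library-set term complex I had 0 higher and 1 lower with a median of -0.26, and complexes II to V had 0 higher and 0 lower with a median of -0.12. The complex I sum was 8403 and 12085 CPM in HFD-C replicates 5 and 6, and 7292 to 9784 CPM in its high-share mice. For complexes II to V these sums were 18050 and 27166 CPM, and 15910 to 22727 CPM.

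Ndufb1 was the complex I gene that fell, from 72.1, 106 and 127 CPM in NFD-C to 48.7, 60.7 and 85.5 CPM in HFD-U (-0.70 ± 0.15, adjusted p = 0.0368, -0.72 with the term). It overlaps Cpsf2 in the table. Among 13 mitochondrially encoded messenger RNAs, 1 was higher (COX1, 0.44, unadjusted p = 0.0319) and 1 lower. The lower one was ND3, at 10.01, 20.7 and 137 CPM and 7.33, 10.5 and 19.6 CPM, with 2 NFD-C mice at 102 and 137 CPM (-2.12 ± 0.58, adjusted p = 0.132).

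Pyruvate entry held a called gene. Mpc1, a subunit of the mitochondrial pyruvate carrier, lay at 58.3, 60.9 and 73.3 CPM in NFD-C and 74.9, 92.8 and 110.2 CPM in HFD-U with no overlap (0.53 ± 0.11, adjusted p = 0.0302). In HFD-C it was at 60.1 to 64.4 CPM at a high share and 71.4 and 103 CPM at a low share, and the difference with the term was 0.042 (unadjusted p = 0.83). Pdp1, the phosphatase that switches on pyruvate dehydrogenase, was at 0.47 ± 0.12 (adjusted p = 0.109) and 0.70 with the term (unadjusted p = 0.00422). Of the TCA cycle and pyruvate entry list, 6 of 30 tested members were higher and 0 lower, with a median of 0.18 (with the term, 2 higher and 0 lower with a median of 0.23).

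Glycolysis genes differed between the fits. Of glycolysis, 2 of 19 tested members were higher and 0 lower, with a median of -0.11, while with the library-set term it had 2 higher and 7 lower with a median of -0.39. Of glycogen metabolism, 0 of 16 tested members were higher and 0 lower, with a median of -0.032. Ldhb, the heart-type lactate dehydrogenase that is typical of oxidative fibres, lay at 16.2, 74.1 and 266 CPM and 66.7, 285 and 445 CPM (1.51 ± 0.54, adjusted p = 0.288). In insulin signalling and glucose uptake, 1 of 25 tested members was higher and 1 lower. Irs1, a substrate of the insulin receptor, was on the lower side at -0.66 ± 0.19 (adjusted p = 0.146), and Tbc1d4, the Akt substrate that restrains GLUT4, was on the higher side (0.42, unadjusted p = 0.0252).

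**Figure D5:**
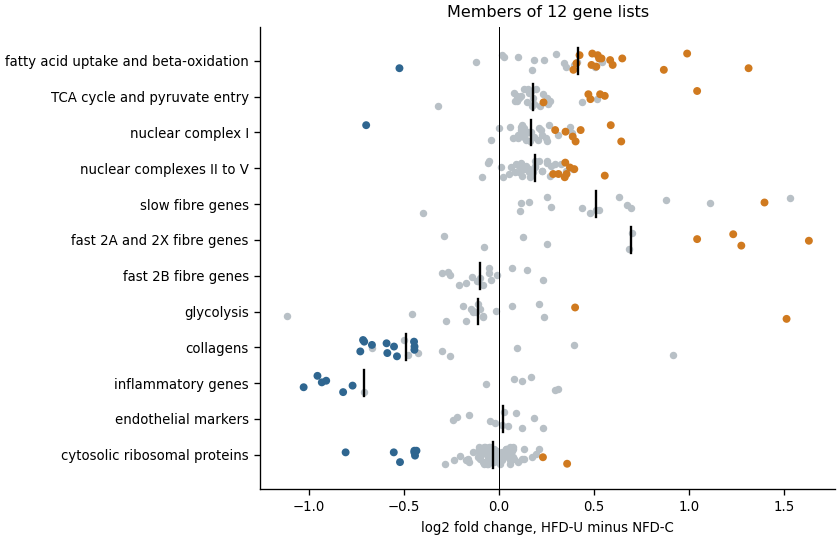
Log2 fold change, HFD-U minus NFD-C, of each tested member of 12 gene lists, with the list's median as a bar and members past the unadjusted threshold in orange (higher) or blue (lower). Beta-oxidation and TCA members lie mostly right of 0, collagens and several inflammatory genes lie left of it, and endothelial markers lie around 0.

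Fibre type genes depended on 1 mouse. NFD-C replicate 1 held 3832 CPM of Myh2 and 417 CPM of Myh7, while the 5 other NFD-C mice held 104 to 699.7 CPM and 0 to 45.0 CPM. In HFD-U, Myh2 lay at 444, 3204 and 7429 CPM and Myh7 at 14.7, 80.04 and 184 CPM. With all 12 libraries Myh2 was at 1.63 ± 0.73 (adjusted p = 0.432) and Myh7 at 0.12 ± 1.26 (adjusted p = 0.991). Without NFD-C replicate 1 the values were 2.68 (adjusted p = 0.0534) and 3.15 (adjusted p = 0.174).

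The lists depended on this mouse and on the library-set term. Only the omission of this mouse is given for them. It also raised the genes higher past the unadjusted threshold over all genes, from 560 to 805. Of slow fibre genes, 1 of 17 tested members was higher and 0 lower, with a median of 0.51, and without NFD-C replicate 1 the numbers were 12 and 0 with a median of 1.69. With the term they were 1 higher and 0 lower with a median of 0.053. Of 2A and 2X genes, 4 of 10 tested members were higher and 0 lower, with a median of 0.69, and without that mouse 6 and 0 with 1.23 (with the term, 3 higher and 0 lower with a median of 1.36). Of 2B genes, 0 of 17 tested members were higher and 0 lower, with a median of -0.10, and without that mouse 0 and 3 with -0.15 (with the term, 0 higher and 7 lower with a median of -0.42).

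Myoglobin (Mb), the oxygen store of oxidative fibres, lay at 403, 1015 and 3069 CPM in NFD-C and 893, 3664 and 5594 CPM in HFD-U (1.27 ± 0.48, adjusted p = 0.322). Myh1, the 2X myosin, lay at 519.9, 1456 and 3955 CPM and 1326, 4569 and 8430.2 CPM (1.23 ± 0.49, adjusted p = 0.359). Both overlapped between the groups, and the lowest runners lay near the sedentary medians. Myh4, the 2B myosin, was at -0.17 ± 0.17 (adjusted p = 0.805), with 35229 to 63694 CPM in HFD-U around 46381 to 62734 CPM in NFD-C. Smtnl1, a smoothelin-like protein of oxidative fibres, was the slow-list gene past the unadjusted threshold in the full set (1.39 ± 0.50, adjusted p = 0.289). In sedentary high-fat mice, Myh2 ran from 588 to 4970.0 CPM, so HFD-C overlapped both groups.

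No collagen passed the adjusted test in edgeR (DESeq2 called 5 lower). Of 20 tested members 0 were higher and 11 lower past the unadjusted threshold, with a median of -0.49. Col5a3, Col6a3 and Col15a1 headed it. Col6a3, a chain of the pericellular type VI collagen, lay at 23.04, 33.9 and 39.1 CPM in NFD-C and 13.7, 20.5 and 25.5 CPM in HFD-U (-0.71 ± 0.16, adjusted p = 0.062). Col5a3, a chain of type V collagen, was at -0.72 ± 0.16 (adjusted p = 0.0546), and Col15a1, of the basement membrane zone, at -0.73 ± 0.17 (adjusted p = 0.0716). Beside this, in HFD-C, Col15a1 was at 17.4 to 34.2 CPM in high-share mice and 15.2 and 13.2 CPM in low-share mice. The list's median with the library-set term was 0.06, with 0 members higher and 2 lower. Col5a3 was one of those, at -1.003 (unadjusted p = 0.00851).

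Hspg2, the basement membrane proteoglycan perlecan and a long gene, fell (-0.77 ± 0.14, adjusted p = 0.0129) and lay at 0.24 with the term. Of the 8 tested fibroblast markers, 1 was lower past the unadjusted threshold, and it was Col15a1, which the collagen list also holds. The fibroblast sum was 680.5, 1093 and 1163 CPM in NFD-C and 739, 907 and 1231 CPM in HFD-U. Endothelial markers gave 0 of 12 in either direction, with a median of 0.02. Of angiogenic factors, 1 of 20 tested members was higher and 5 lower, with a median of -0.12. Angpt2, an antagonist of the Tie2 receptor, was among the lower ones, at -0.84 ± 0.28 (adjusted p = 0.237).

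Of the 4 genes of MHC class II presentation tested, 1 fell and the 3 others were lower past the unadjusted threshold. Genes of this group serve the presentation of peptides by macrophages, dendritic cells and B cells. H2-Aa, the alpha chain of I-A (chromosome 17, 34501718 to 34506797 on GRCm39), fell from 7.77, 13.1 and 20.3 CPM in NFD-C to 4.91, 6.45 and 8.95 CPM in HFD-U (-1.03 ± 0.21, adjusted p = 0.0327, -1.001 with the term, unadjusted p = 0.0125). Of the 6 NFD-C mice, 5 lay above the HFD-U range. HFD-C lay at 7.44 to 13.4 CPM and 9.22 and 11.1 CPM, so both kinds of library gave values within the NFD-C range or just under it.

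H2-Eb1, the beta chain of I-E, lay at 5.61, 12.3 and 15.5 CPM and 4.36, 6.18 and 8.397 CPM (-0.93 ± 0.23, adjusted p = 0.0748). H2-Ab1, the beta chain of I-A, was at -0.95 ± 0.26 (adjusted p = 0.119) and Cd74, the invariant chain that escorts them, at -0.82 ± 0.20 (adjusted p = 0.0749). With the term these 3 lay at -0.79, -0.66 and -0.57 (unadjusted p = 0.0685, 0.226 and 0.139), so H2-Aa alone of the 4 passed the unadjusted threshold there. All 4 were chosen for a closer look after their values were seen. Of the inflammatory list that holds them, 0 of 13 tested members were higher and 6 lower, with a median of -0.71, and beside the class II genes they were the cytokine feedback genes Cish (-0.91, unadjusted p = 0.0177) and Socs3 (-0.77, unadjusted p = 0.023). With the term the list had 0 higher and 1 lower with a median of -0.57. General macrophage markers gave 0 of 9 in either direction with a median of -0.09, and their sum was 26.7, 52.8 and 75.9 CPM in NFD-C and 34.7, 49.7 and 73.3 CPM in HFD-U. Of 25 tested interferon-stimulated genes 0 were higher and 1 lower.

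Class II genes share a Y box, the CTGATTGG element bound by NF-Y, in their proximal promoters. RefSeq promoters (GRCm38.p6, 250 bases before to 50 after the gene's start) were held for H2-Aa and H2-Eb1 of the 4 genes, and they are printed to show that element, in capitals, in genes of that group.
H2-Aa (chr17:34287774-34288073, minus strand): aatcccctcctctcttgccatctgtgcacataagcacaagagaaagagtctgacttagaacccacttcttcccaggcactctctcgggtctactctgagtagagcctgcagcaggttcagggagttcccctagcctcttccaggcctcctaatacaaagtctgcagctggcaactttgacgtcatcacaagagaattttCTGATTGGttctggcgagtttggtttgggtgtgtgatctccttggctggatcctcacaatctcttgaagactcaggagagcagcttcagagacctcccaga
H2-Eb1 (chr17:34305617-34305916, plus strand): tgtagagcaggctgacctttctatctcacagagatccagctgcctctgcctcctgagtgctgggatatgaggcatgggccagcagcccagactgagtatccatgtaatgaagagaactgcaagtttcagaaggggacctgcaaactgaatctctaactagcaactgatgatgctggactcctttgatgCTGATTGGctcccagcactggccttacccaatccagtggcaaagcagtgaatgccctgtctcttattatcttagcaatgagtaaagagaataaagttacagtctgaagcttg
Both held CTGATTGG when either strand was searched, and 1271 of the 27025 genes with a promoter in that table did (4.7%). The match describes the letters only.

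Clock genes follow the time of day in muscle as in other tissues. Of the genes in the phase of Bmal1, 0 of 5 tested members were higher and 2 lower, and of those in the phase of Dbp, 3 of 14 tested members were higher and 1 lower. Arntl, which encodes Bmal1 itself, lay at 9.21, 11.5 and 17.4 CPM in NFD-C and 5.09, 6.94 and 9.68 CPM in HFD-U (-0.78 ± 0.19, adjusted p = 0.0716). Nfil3, a repressor of Dbp targets, was at -0.52 ± 0.19 (adjusted p = 0.305).

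On the other arm, Dbp lay at 51.7, 71.6 and 131 CPM and 92.03, 119 and 129 CPM (0.50 ± 0.20, adjusted p = 0.336), and Per3 at 0.46 ± 0.15 (adjusted p = 0.235). Per1 was on the lower side at -0.37 ± 0.15 (adjusted p = 0.363). The hours of tissue collection per group were not given in the sources used here, so collection time and group cannot be told apart. The restricted runners had Arntl medians of 7.704, 14.99 and 11.9 CPM, with HFD-50% and HFD-75% above HFD-U.

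Of glucocorticoid-induced genes, 0 of 23 tested members were higher and 4 lower, with a median of -0.054. Zbtb16, a zinc finger repressor, lay at 117, 152 and 203 CPM and 72.5, 104 and 133 CPM (-0.62 ± 0.15, adjusted p = 0.0859, 0.24 with the term). Trim63, the atrophy ubiquitin ligase MuRF1, was at -0.49 ± 0.18 (adjusted p = 0.3). Fkbp5, the best known target of the receptor, was on the other side at 0.35 ± 0.27 (adjusted p = 0.736).

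Among FOXO and atrophy genes, 2 of 25 tested members were higher and 2 lower. Foxo6, a FOXO factor, lay at 2.29, 4.03 and 6.39 CPM in NFD-C and 4.81, 9.84 and 11.6 CPM in HFD-U (1.10 ± 0.26, adjusted p = 0.0654). Autophagy genes gave 0 higher and 1 lower of 30. Of immediate early genes, 0 of 25 tested members were higher and 3 lower. Ccn1, a matricellular growth signal, was the member that fell, from 24.8, 31.98 and 45.6 CPM to 16.4, 21.3 and 24.4 CPM (-0.67 ± 0.15, adjusted p = 0.0494, -0.70 with the term).

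Nr4a3, an orphan nuclear receptor that is induced by acute exercise, was at -1.27 ± 0.53 (adjusted p = 0.391), with 2.11 to 16.3 CPM in NFD-C and 0.491 to 7.700 CPM in HFD-U. Of heat shock proteins, 3 of 30 tested members were higher and 0 lower. Hsph1, an Hsp110 chaperone, lay at 60.2, 70.5 and 79.6 CPM and 76.9, 109 and 121 CPM (0.53 ± 0.12, adjusted p = 0.0646, 0.69 with the term), and Cryab, the small heat shock protein of the Z-disc, was at 0.59 ± 0.20 (adjusted p = 0.244). Of NRF2 targets and antioxidant enzymes, 2 of 28 tested members were higher and 4 lower, and of metallothioneins 0 of 5 in either direction.

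Amino acid genes held a called transporter. Slc38a2, the system A carrier of glutamine and alanine, fell from 198, 227 and 271 CPM in NFD-C to 139, 153 and 191 CPM in HFD-U with no overlap (-0.52 ± 0.11, adjusted p = 0.04, -0.30 with the term). Of the list, 6 of 28 tested members were higher and 2 lower, with a median of 0.19. Kyat3, a kynurenine aminotransferase, lay at 4.17, 6.39 and 7.62 CPM and 6.84, 10.9 and 13.04 CPM (0.75 ± 0.20, adjusted p = 0.119, 1.31 with the term, unadjusted p = 0.00701). The branched-chain genes Ppm1k, Bcat2 and Bckdha were on the higher side at 0.69, 0.29 and 0.28 (unadjusted p from 0.0107 to 0.0465).

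Of cytosolic ribosomal protein genes, 2 of 74 tested members were higher and 7 lower, with a median of -0.031. With the term the list had 0 higher and 12 lower with a median of -0.34. Rpl21 fell, from 46.4, 57.05 and 103 CPM to 29.9, 35.4 and 43.3 CPM (-0.81 ± 0.17, adjusted p = 0.0421, -0.84 with the term). Such genes share reads with their pseudogenes, so single members are uncertain. Of proteasome subunits, 0 of 31 tested members were higher and 1 lower (with the term, 0 higher and 8 lower with a median of -0.26).

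At the neuromuscular junction, Chrna1, the alpha subunit of the muscle acetylcholine receptor, rose from 7.67, 8.59 and 11.2 CPM in NFD-C to 11.3, 13.5 and 15.5 CPM in HFD-U (0.60 ± 0.13, adjusted p = 0.0457, 0.49 with the term, unadjusted p = 0.103). The groups did not overlap. Lrp4, the agrin receptor, was on the same side (0.67 ± 0.23, adjusted p = 0.247). Myog, the myogenic factor that drives receptor genes in denervated muscle, was on the other, at 1.82, 3.22 and 5.498 CPM and 1.398, 1.56 and 1.91 CPM (-1.04 ± 0.28, adjusted p = 0.132, -1.47 with the term).

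Of the myogenic and junction list, 3 of 17 tested members were higher and 3 lower. Of calcium handling genes, 1 of 32 tested members was higher and 3 lower. Ryr1, the calcium release channel and a long gene, was lower in every HFD-U mouse than in any NFD-C mouse, at 3935, 4214 and 5147 CPM and 2496, 3187 and 3551 CPM (-0.48 ± 0.12, adjusted p = 0.0859, -0.28 with the term). Among myokines, 1 of 17 tested members was higher and 2 lower, and Il15, a cytokine made by muscle, lay at 2.39, 3.33 and 6.93 CPM and 2.53, 10.03 and 12.3 CPM (1.16 ± 0.35, adjusted p = 0.178).

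The study picked 12 genes for a relation with running distance over the high-fat groups, HFD-U among them but not NFD-C, so their direction here is not independent evidence. Of them, 3 of 12 tested members were higher and 1 lower, and the lower one was Lars2. Car4, a membrane carbonic anhydrase of muscle capillaries, lay at 3.59, 5.15 and 9.09 CPM in NFD-C and 4.13, 12.6 and 20.1 CPM in HFD-U (0.98 ± 0.35, adjusted p = 0.273). Sesn1, a stress-induced inhibitor of mTORC1, was at 0.52 ± 0.22 (adjusted p = 0.407), and Foxo1 at -0.40 ± 0.37 (adjusted p = 0.79).

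Markers of the other cell types that the muscle could hold are given for completeness. Of blood cell markers, 0 of 6 tested members were higher and 1 lower, of Schwann cell markers 0 of 5 tested members were higher and 0 lower, of tendon markers 0 of 4 tested members were higher and 0 lower, of satellite cell markers 1 of 6 tested members was higher and 0 lower, and of smooth muscle and pericyte markers 0 of 6 tested members were higher and 1 lower, all past the unadjusted threshold. The Schwann cell sum was 33.8, 46.7 and 306 CPM in NFD-C, with 1 mouse far above the rest, and 34.01, 62.7 and 79.97 CPM in HFD-U.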

How the data were processed

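The authors aligned poly(A)-selected reads with HISAT2 2.0.5 and counted them per gene with featureCounts 1.5.0-p3, per the submitters' processing notes, and deposited 1 table of raw counts for 36 libraries and 46893 features with gene lengths. Those notes name mm10, but the chromosome accessions in the table are those of GRCm39, so coordinates are given on GRCm39. The setting for strand and for reads with several matches was not given in the sources used here. No column of per-sample values was left unmapped (0). The 562 features with no name held 0.262% of counts.

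Counts were scaled by TMM and tested with edgeR 4.0.16 (quasi-likelihood F test, 6 against 6 libraries, mean count of at least 25, R 4.3.3), with Benjamini-Hochberg adjustment over all genes tested. DESeq2 1.42.0 and limma-voom (limma 3.58.1) were alternatives, beside other scalings, filters, terms for the rRNA-linked share, a replicate block and the omission of each library. The test was tried on simulated data. Replicates differed by far more than sampling noise (chi-square per degree of freedom of 18.4 or more in every pair of a group).

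Named genes were the 8 smallest p in each direction among genes past the adjusted threshold and 2-fold, up to 3 members of each of 50 lists, and the 12 genes of the study. From lists of genes by function these were the members with the smallest p in this same comparison. From the library, tissue and cell type lists they were those with the highest mean count. Chosen after their values were seen, or to complete a count, were mt-Rnr1, Rn7sk, Meg3, Kcnq1ot1, Gm38621, Plec, Srcap, Zfhx3, Golm2, Idh1, Tceal7, Actg1, H2-Ab1, Fabp3, Myh2, Myh7, the parents of pseudogenes, and list members given by value alone. Some items are not reported here. Groups, lists and alternatives were chosen with earlier results of these data known. GC content was read from the longest GENCODE M21 transcript. A check of it over the 72 fallers is void, since 72.2% of them had a value, and the classes of GC rest on unadjusted p. P-values set the group difference against the spread between mice within a group. That spread does not hold the gap in rRNA-linked share between NFD-C and HFD-U.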

Additional observations from a re-analysis of the deposited data

Results flagged for a closer look

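In each group of 6 mice, the levels of 92 named genes were examined for a mouse that stood apart from the 5 others (a gap to the nearest mouse, as a share of the whole range, above Dixon's 95% limit). Of 184 such sets 14 passed, 11 of them in NFD-C and 3 in HFD-U, and chance gives about 1 in 20.

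NFD-C replicate 1 was above its group in 8 of them. It held 3832 CPM of Myh2 (next mouse 699.7), 417 CPM of Myh7 (next 45.0), 266 CPM of Ldhb (next 92.6), 280 CPM of Idh2 (next 124), 130.3 CPM of Smtnl1 (next 51.2), 86.8 CPM of Echs1 (next 61.1), 13.4 CPM of Golm2 (next 8.42) and 16.3 CPM of Nr4a3 (next 6.97). For Myh2 and Myh7 the values without this mouse are given above.

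The other 3 in NFD-C were mt-Rnr1 in replicate 3 (1498 CPM, next 1215), Rpl21 in replicate 4 (103 CPM, next 62.2) and Arntl in replicate 6 (17.4 CPM, next 11.9). In HFD-U they were Meg3 in replicate 6 (11.2 CPM, next 14.4), Gm38621 in replicate 3 (1.79 CPM, next 0.533) and Nr4a3 in replicate 2 (7.70 CPM, next 2.797).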

How the results depend on the processing

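The number of genes past the adjusted threshold (91) was 255 with DESeq2 on the same genes, 342 with DESeq2 and no minimum count, 201 with edgeR and no minimum count, 60 with all 36 libraries in one fit, 1 with the share of rRNA-linked counts in the model and 0 with the library-set term. For those also 2-fold apart (49) the first 3 of these gave 101, 207 and 132, and the covariate and the term 1 and 0. Genes past the unadjusted threshold (1263) were 3203 with no minimum count in edgeR and 2047 in DESeq2, since more genes were tested. Leaving out 1 library gave 49 to 122, 32 to 65 and 1040 to 1706 for the 3 counts.

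With mouse number as a replicate block 164 genes passed. The numbers share no stated origin: same-numbered mice deviated together with correlations of 0.51, 0.33, -0.074, 0.22, 0.068 and -0.054 for mice 1 to 6, and own numbers were the best match for 2 of 6 HFD-U and 3 of 6 NFD-C mice. So the mice were not taken as paired. Under the block Plcl1 and Ccn1 lost their calls and 7 named genes gained one, among them Arntl, Ryr1 and Hsph1.

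With the library-set term the direction turned for AY036118 (0.091), LOC118568312 (0.11), Kmt2d (0.031), Plec (0.037), Hspg2 (0.24), Ndufa12 (-0.29), Zbtb16 (0.24) and Myh7 (-0.95). With the share as a covariate, which nearly repeats the group, it turned for mt-Rnr1 (1.75), mt-Rnr2 (2.23), Rn7sk (0.84), Malat1 (0.082), Kcnq1ot1 (0.53), Hspg2 (0.38), Ccn1 (0.076), H2-Aa (0.29), Cpt1a (0.067), Ndufa12 (-0.32), Slc25a1 (1.32), Zbtb16 (0.55), Per1 (1.09), Dbp (-0.60), Nfil3 (1.01), Foxo1 (1.31) and ND3 (4.58). Without the mice numbered 1, mt-Rnr2 was 0.028. Over the omission of single libraries mt-Rnr1 ran from -0.21 to 0.0099, mt-Rnr2 from -0.13 to 0.10 and Myh7 from -0.28 to 3.15. No alternative scaling (DESeq2 size factors, upper quartile) changed a call or a direction among the 92 named genes. The cause of these shifts was not tested. Depth limits genes of few CPM, such as Angpt2 and Slc25a1.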
